A study of Mus musculus with 8 samples.

Results

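The data compare mG+ cells of skeletal muscle with mG+ cells of visceral fat (VAT) in mice fed chow, by RNAseq. The 4 libraries compared are all those of these 2 tissues among the 8 libraries of the series, and they were chosen by their tissue and diet labels alone. The cells were sorted by FACS for GFP from gastrocnemius muscle and from intraperitoneal fat of females aged 8 months. One library per tissue carries the label WT (Tie2e-cre, TERT+/+ and mTmG) and one the label EC-*Tert*-KO (Tie2e-cre, TERTfl/fl and mTmG), so that Cre and the mTmG reporter were shared by all 4 libraries and each tissue had 2 libraries. The sources do not say if a library holds 1 mouse or several, nor if a mouse gave both tissues. The p-values below therefore measure the spread between these libraries only.

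In mTmG mice, cells that have had Cre activity switch from a red to a green membrane reporter, and they and their progeny stay green (mG+). The Tie2 gene (*Tek*) encodes an angiopoietin receptor of endothelial cells, and its enhancer is also active in the lineage of blood cells, so mG+ cells of a Tie2-driven Cre can include leukocytes as well as endothelium. Muscle endothelium is mostly capillary and feeds fibres that take up glucose and fatty acids. VAT holds capillaries, venules and a resident population of macrophages and lymphoid cells that clear dying adipocytes and respond to stored lipid.

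The libraries held 17399719 (muscle, WT), 12940511 (muscle, EC-*Tert*-KO), 9389345 (VAT, WT) and 14344720 (VAT, EC-*Tert*-KO) counts, and between 20922 and 23529 genes had at least 1 count. Levels are given below as CPM, counts per 1e6 counts after scaling of the libraries, in that order of the 4 libraries. A floor of 3 counts is worth 0.179 to 0.324 CPM. Mitochondrially encoded protein genes took 1.73 to 2.20% of the counts. *Tert* had 24 and 7 counts in the muscle libraries labelled WT and EC-*Tert*-KO, and 3 and 9 counts in the VAT libraries with the same labels. In VAT the counts therefore go against the labels, at a depth of under 10 counts, and the counts cover the whole gene rather than the floxed part. The pairs are called below by their labels, the WT pair and the EC-*Tert*-KO pair.

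Of 16951 genes tested, 3311 had an adjusted p under 0.05 between muscle and VAT by edgeR's quasi-likelihood test with genotype as a block, 1622 higher in muscle and 1689 higher in VAT. A gene is called here where it passed that test and also differed by at least 2-fold the same way in the WT pair and in the EC-*Tert*-KO pair. By this rule 981 genes were called higher in muscle, 5.79% of those tested, and 1100 were called higher in VAT, 6.49%. These percentages are the background against which the counts of each gene list below are set. A fit over all 8 libraries of the series, with the same fold rule, called 190 and 188 genes, of which 190 and 187 were among these.

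The WT pair and the EC-*Tert*-KO pair share no library. The muscle-to-VAT ratio had the same sign in both pairs for 73.4% of the genes tested. Across these genes, which are not independent replicates, the ratios of the pairs had a Pearson correlation of 0.637 and a Spearman correlation of 0.607. With 1 library per tissue and genotype, a difference between the pairs could not be tested.

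**Figure D1:**
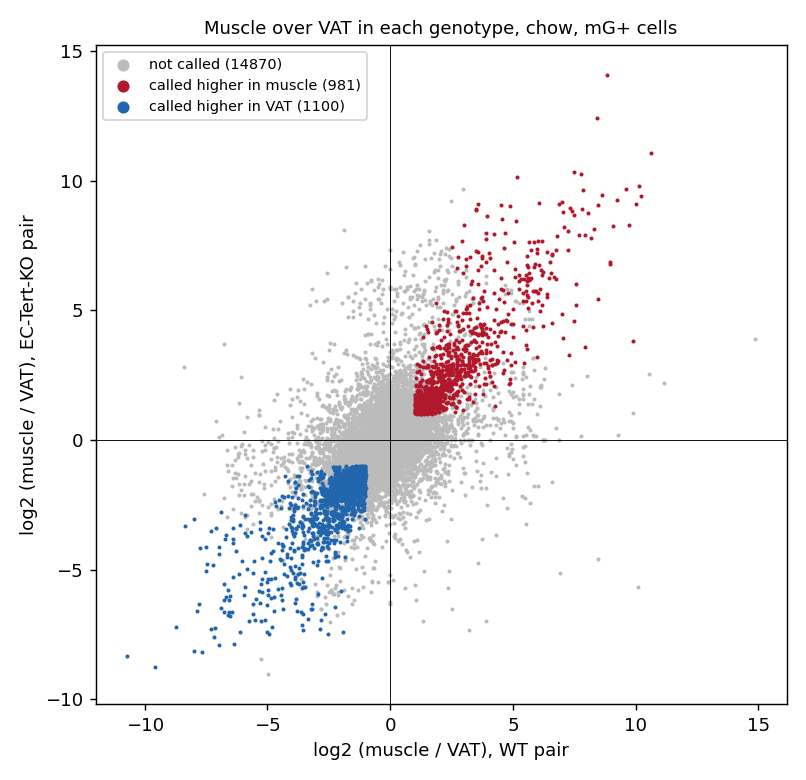
Each point is a gene, with its log2 ratio of muscle to VAT in the WT pair on the x axis and in the EC-*Tert*-KO pair on the y axis. The 981 genes called higher in muscle lie in the upper right and the 1100 genes called higher in VAT in the lower left, and the grey points off the diagonal are genes whose ratio differed between the pairs.

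The genes with the largest differences present in both pairs were mostly leukocyte genes, in both directions. Among the 12 leading genes of muscle, *Ngp*, *Ltf* and *Camp* encode proteins of neutrophil secondary granules, *Elane*, *Ctsg* and *Mpo* encode proteins of primary granules, *Ms4a3* marks granulocyte and monocyte progenitors, and *Epx* encodes eosinophil peroxidase. *Ngp* was at 7288 and 7530 CPM in muscle against 6.49 and 8.47 CPM in VAT, a log2 difference of 9.96 ± 0.52 (SE of the fit, adjusted p = 2.49e-05). *Ltf*, lactoferrin, was at 5212 and 5213 CPM in muscle against 4.32 and 7.61 CPM in VAT. *Camp*, the cathelicidin peptide, was at 1605 and 1899 CPM against 1.51 and 3.42 CPM. The muscle libraries were close to each other in these genes, and both VAT libraries lay far below them. In RNA from a pool of sorted cells, as in any bulk sample, fewer cells of a type and less RNA per cell cannot be told apart.

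*Ms4a3* was at 60.3 and 75.8 CPM in muscle and had no count in either VAT library, at least 186-fold higher when VAT is set to the floor of 3 counts per library. On the same floor *Epx* was at least 90.7-fold higher, at 30.2 and 29.4 CPM, and *Mogat2*, an acyltransferase of triglyceride synthesis, at least 66.6-fold higher, at 23 and 21.6 CPM. The call of *Mogat2* was lost in DESeq2 and that of *Epx* in the fit over all 8 libraries. *Wfdc21* and *Fcnb*, also neutrophil genes, were at 129 to 197 CPM in muscle and at or below 0.432 CPM in VAT. *Glycam1*, a mucin-like ligand of L-selectin known from high endothelial venules of lymph nodes, was at 26 and 45.9 CPM in muscle against 1 count and no count in VAT. Its ratio in the WT pair had a counting interval of 5.43 to 13.22 on the log2 scale.

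The leading genes of VAT included many that resident macrophages are known to express. *Cd163*, the haemoglobin scavenger receptor, was at 12.6 and 10.8 CPM in muscle against 1099 and 1084 CPM in VAT, 93.5-fold higher in VAT (log2 -6.55 ± 0.30, adjusted p = 1.58e-05). *Mrc1*, the mannose receptor, was at 41.8 and 15.0 CPM against 2225 and 1918 CPM. *Retnla*, a secreted product of macrophages exposed to type 2 cytokines, was at 33.6 and 17.2 CPM against 2352 and 2904 CPM. The muscle library labelled EC-*Tert*-KO was the lowest of the 4 in each of these genes, and no muscle library came near the VAT libraries.

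Among these 12 genes, lectins of the *Cd209* cluster had the largest fitted ratios. *Cd209f* was at 0.179 and 0.933 CPM in muscle against 366 and 316 CPM in VAT, and *Cd209g* at 0.598 and 0.359 CPM against 130 and 113 CPM. These genes are near copies of each other, and the counting could divide shared reads among them, so their separate values are uncertain. *Folr2*, the folate receptor of tissue macrophages, was 167-fold higher in VAT, *Ccl24*, an eosinophil chemokine, 104-fold, *Timd4*, a receptor for phosphatidylserine, 94.6-fold, and *Cbr2* 54.8-fold. *Fcna*, a plasma ficolin, *Pla2g2d*, a secreted phospholipase, and *Calca*, the gene of calcitonin and CGRP, made up the 12. The calls of all 12 genes of VAT, and of 10 of the 12 of muscle, held under every alternative run.

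**Figure D2:**
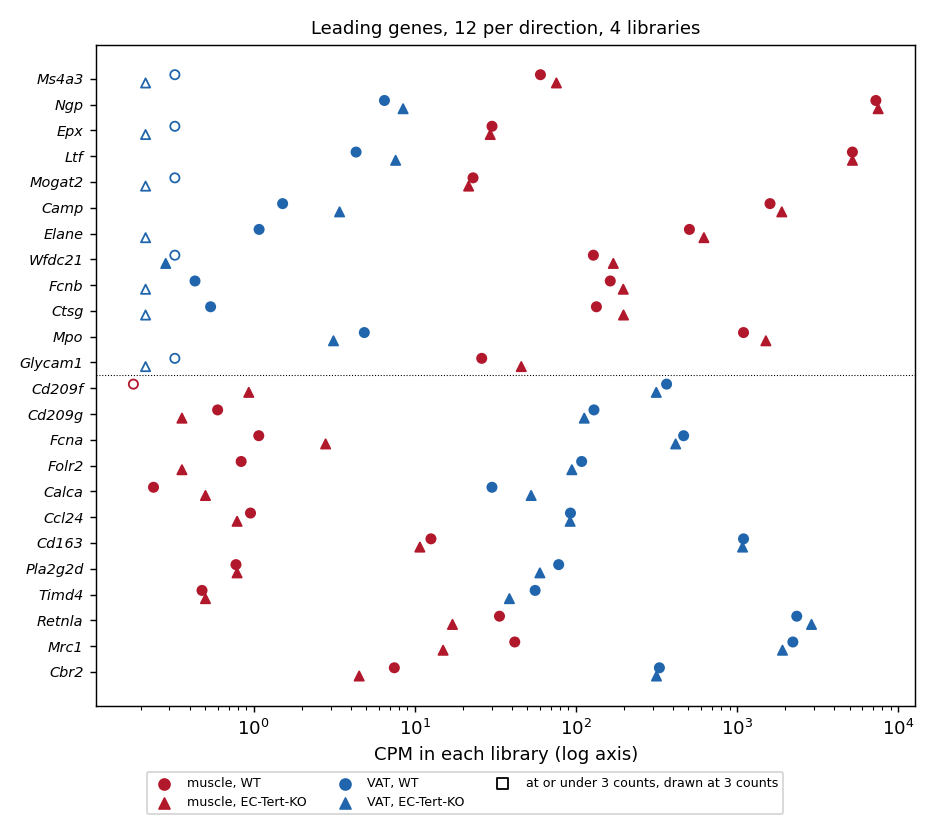
CPM of the 12 leading genes of each direction in the 4 libraries, on a log axis, with circles for WT, triangles for EC-*Tert*-KO, red for muscle and blue for VAT, and open symbols for values at or under 3 counts. In every gene both libraries of one tissue lie far from both of the other, while *Cd209f* and *Mrc1* also differ between the muscle libraries.

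Neutrophils build their granules in sequence. Promyelocytes in the bone marrow make the primary granule proteins, myelocytes the secondary ones, and only later stages carry the receptors of the circulating cell. All 8 tested primary granule genes were called higher in muscle, with a median log2 ratio of 8.63, or 7.82 when the 2 genes without a count in VAT are set to their lower bounds. *Mpo*, myeloperoxidase, was at 1099 and 1513 CPM in muscle against 4.86 and 3.13 CPM in VAT, 331-fold higher (log2 8.37 ± 0.41, adjusted p = 2.22e-05). *Elane*, neutrophil elastase, was at 507 and 624 CPM against 1.08 CPM and no count. *Prtn3*, proteinase 3, was at 443 and 506 CPM against 2.70 and 0.996 CPM. *Prss57* was at least 46.4-fold higher, a call lost in DESeq2. The smallest difference was that of *Gfi1*, a transcriptional repressor, at 26.1 and 39.8 CPM against 11.1 and 14.4 CPM. Its call was lost without the muscle EC-*Tert*-KO library and without the VAT WT library.

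Of 15 secondary and tertiary granule genes, 11 were called higher in muscle and 1 higher in VAT, with a median log2 ratio of 5.96. *Lcn2*, the siderophore-binding lipocalin, was 200-fold higher in muscle, at 2569 and 2528 CPM against 17.1 and 9.46 CPM. *Olfm4* was at 226 and 136 CPM against 1.62 and 0.427 CPM, and *Chil3*, also made by alternatively activated macrophages, at 1587 and 2268 CPM against 63.5 and 57.3 CPM. The gene that went the other way was *Arg1*, arginase, which macrophages and ILC2 also express, at 0.837 and 1.36 CPM in muscle against 26.3 and 35.9 CPM in VAT. *Mmp9*, *Cybb* and *Itgam*, which monocytes and macrophages share, were not called, with log2 ratios of 0.20 to 0.88.

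Of 18 mature neutrophil genes, 15 were called higher in muscle and none higher in VAT, with a median log2 ratio of 2.82. The alarmin *S100a8* was at 3673 and 5264 CPM in muscle against 61.2 and 48.0 CPM in VAT, and its partner *S100a9* at 6487 and 8164 CPM against 134 and 106 CPM. *Ly6g*, the surface marker of mouse neutrophils, was at 70.3 and 96.4 CPM against 0.432 and 0.569 CPM. *Retnlg* was at 708 and 710 CPM against 37.8 and 39.7 CPM. The chemokine receptor *Cxcr2*, gained late in maturation, was at 126 and 114 CPM against 30.4 and 7.90 CPM, and its call was lost when either muscle library was left out. *Csf3r*, *Clec4d* and *Clec4e* had log2 ratios of 0.47 to 1.09 and were not called. The median ratio thus went down from the primary granule list to the secondary and the mature list, and the order was not tested.

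Promoters of genes that differ together are shown as context for the granule and macrophage genes. The windows run from 250 bases before to 50 bases after the start of the gene in RefSeq (GRCm38.p6), on the strand of the gene. Capitals mark exact matches on either strand to GAGGAA, the core that PU.1 and other ETS factors bind, and to TTNNGNAA, a C/EBP-like pattern. The window of *Elane* is chr10:79886062-79886361 (plus strand), that of *Ngp* chr9:110419558-110419857 (plus strand), and that of *Mrc1* chr2:14229164-14229463 (plus strand).
Elane: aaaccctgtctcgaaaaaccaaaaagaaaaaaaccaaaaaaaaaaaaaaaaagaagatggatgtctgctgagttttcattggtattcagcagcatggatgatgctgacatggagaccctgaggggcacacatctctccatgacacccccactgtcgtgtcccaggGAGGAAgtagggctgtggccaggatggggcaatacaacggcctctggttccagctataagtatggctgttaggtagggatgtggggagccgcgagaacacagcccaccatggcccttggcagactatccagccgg
Ngp: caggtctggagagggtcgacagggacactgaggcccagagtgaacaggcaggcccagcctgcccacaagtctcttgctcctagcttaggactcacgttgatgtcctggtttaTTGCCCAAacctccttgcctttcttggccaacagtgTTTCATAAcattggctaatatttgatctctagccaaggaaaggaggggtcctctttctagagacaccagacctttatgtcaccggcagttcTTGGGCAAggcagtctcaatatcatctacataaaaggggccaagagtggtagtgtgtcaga
Mrc1: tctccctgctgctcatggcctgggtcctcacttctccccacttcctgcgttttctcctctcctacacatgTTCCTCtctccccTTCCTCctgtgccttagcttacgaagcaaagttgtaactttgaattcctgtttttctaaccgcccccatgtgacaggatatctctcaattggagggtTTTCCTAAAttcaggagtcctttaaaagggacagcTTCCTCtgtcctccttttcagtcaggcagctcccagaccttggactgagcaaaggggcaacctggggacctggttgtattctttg
The *Elane* window holds 1 GAGGAA match and no TTNNGNAA match, the *Ngp* window none and 3, and the *Mrc1* window 3 and 2. The 2 TTNNGNAA matches of *Mrc1* overlap and share the marked stretch TTTCCTAAA. Over the 27025 genes of the promoter table, 31.3% had a GAGGAA match and 44.1% a TTNNGNAA match. GAGGAA was found for 5 of the 6 primary and 7 of the 12 secondary and tertiary granule genes with a window. It was found for 11 of 15 macrophage genes and 7 of 11 pan-endothelial genes. In the same order TTNNGNAA was found for 2, 9, 10 and 5 of them. A match is a description of the letters and does not show that a factor binds there.

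Macrophage genes were called higher in VAT almost without exception. Of 22 genes, 21 were called higher in VAT and 1, *Gpnmb*, was not called, with a median log2 ratio of -3.69. *Csf1r*, the receptor that keeps macrophages alive, was at 251 and 129 CPM in muscle against 1993 and 1777 CPM in VAT, 10.4-fold higher (log2 -3.38 ± 0.33, adjusted p = 0.000316). *Adgre1* (F4/80) was at 63.9 and 36.6 CPM against 581 and 609 CPM. *Apoe* was at 511 and 316 CPM against 4876 and 4595 CPM. The transcription factor *Maf* was at 51.2 and 45.4 CPM in muscle against 328 and 302 CPM in VAT. The calls of *Trem2* and *Ms4a7* were lost when either VAT library was left out, that of *Trem2* also without the muscle EC-*Tert*-KO library. The summed level of the list was 1899 and 1162 CPM in muscle against 18030 and 17850 CPM in VAT.

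Of 12 monocyte genes 2 were called higher in muscle and 4 higher in VAT. *Ly6c2* (513 and 517 CPM in muscle against 67.5 and 115 CPM in VAT) and *Plac8*, both high in classical monocytes and in myeloid precursors, were called higher in muscle. *Ccr2*, *Cx3cr1*, *Fn1* and *F13a1* were called higher in VAT, and 6 genes were not called. Without the VAT EC-*Tert*-KO library 7 were called higher in VAT. Of 10 tested genes of large peritoneal macrophages, *Timd4*, *Cxcl13* and *Vsig4* were called higher in VAT, and *Gata6*, the factor that defines these cells, was not (log2 -0.24). Without the VAT WT library 1 gene of the list was called. Among dendritic cell genes, *Cd209a*, *Batf3*, *Clec9a* and *Xcr1* were called higher in VAT and *Itgae* and *Cd24a* higher in muscle, of 13 tested. The call of *Xcr1* was lost with either VAT library left out and without the muscle EC-*Tert*-KO library, and that of *Clec9a* without the VAT WT library. Without the VAT WT library 2 dendritic cell genes were called higher in VAT.

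Of 12 mast cell and eosinophil genes 4 were called higher in VAT and 3 higher in muscle. The mast cell proteases *Mcpt4*, *Tpsb2* and *Cma1* were called higher in VAT, *Cma1* at 0.956 and 1.08 CPM in muscle against 46.6 and 27.8 CPM. *Ccr3*, the eotaxin receptor of eosinophils, was also higher in VAT, at 4.48 and 2.37 CPM against 25.9 and 29.7 CPM. The granule genes that eosinophil precursors make, *Epx*, *Prg2* and *Prg3*, were called higher in muscle, *Prg3* not in DESeq2, with *Prg2* at 91.7 and 114 CPM against 1.30 and 3.56 CPM. *Siglecf*, *Cpa3*, *Kit*, *Fcer1a* and *Ms4a2* were not called.

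B cell genes were higher in muscle. Of 15 genes 11 were called higher in muscle, none higher in VAT, with a median log2 ratio of 2.79. *Pax5*, the factor that keeps B cell identity, was at 211 and 173 CPM in muscle against 20.2 and 23.3 CPM in VAT, 8.77-fold higher (log2 3.13 ± 0.21, adjusted p = 5.37e-05). *Cr2* and *Fcer2a*, markers of mature B cells, were at 79.1 to 84.0 CPM in muscle against 3.98 to 7.35 CPM in VAT. *Cd79a*, a part of the antigen receptor, was at 228 and 179 CPM against 31.2 and 26.7 CPM. *Ighm*, *Ebf1*, *Blk* and *Bank1* had log2 ratios of 0.51 to 1.07 and were not called. *Ighm* was at 1064 and 1125 CPM in muscle against 526 and 907 CPM in VAT, a much smaller gap than that of *Ighd*, at 214 and 195 CPM against 28.1 and 23.8 CPM.

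T cell genes differed less. Of 15 genes 4 were called higher in muscle (*Tcf7*, *Lef1*, *Bcl11b* and *Cd8a*) and 11 were not called, with a median log2 ratio of 1.32. *Tcf7*, a factor of naive T cells, was at 277 and 204 CPM against 68.6 and 61.1 CPM. The call of *Cd8a* was lost when either muscle library was left out, while 9 T cell genes were called without the muscle EC-*Tert*-KO library, 8 without the VAT EC-*Tert*-KO library and 6 without the VAT WT library. Cytotoxic and innate lymphoid genes went the other way. Of 10 NK cell genes 8 were called higher in VAT, with *Gzma*, granzyme A, at 23.1 and 12.4 CPM in muscle against 175 and 129 CPM in VAT and *Prf1*, perforin, at 12 and 5.17 CPM against 79.2 and 58.3 CPM. Of 10 ILC2 genes 7 were called higher in VAT. The type 2 cytokine *Il5* was 61.9-fold higher in VAT, at 1.20 and 0.287 CPM against 39.8 and 54.6 CPM, and *Il1rl1*, the IL-33 receptor, 16.5-fold higher, at 19.1 and 12.9 CPM against 230 and 297 CPM.

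**Figure D3:**
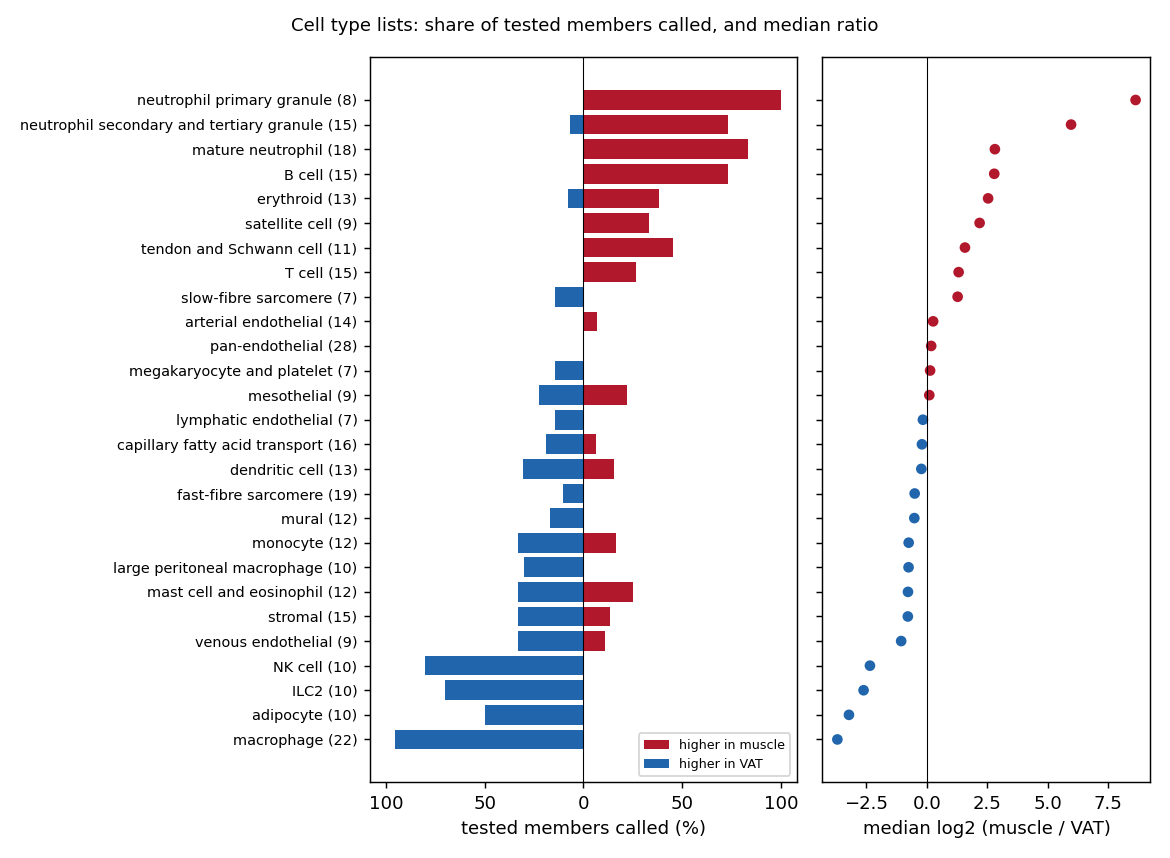
Left, the share of tested members of each cell type list called higher in muscle (red, to the right) or higher in VAT (blue, to the left), with the number tested in brackets. Right, the median fitted log2 ratio of muscle to VAT over the tested members. Neutrophil, B cell and erythroid lists lie at the top, macrophage, adipocyte, ILC2 and NK cell lists at the bottom, and the pan-endothelial list has no call.

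None of the 28 pan-endothelial genes was called in either direction by edgeR or by DESeq2, although in edgeR 6 had an unadjusted and 4 an adjusted p under 0.05, and 3 were called higher in muscle without the muscle WT library and 1 without the VAT WT library. Their fitted log2 ratios ran from -0.44 (*Cldn5*) to 1.07 (*Podxl*), with a median of 0.19. VE-cadherin (*Cdh5*) was at 324 and 361 CPM in muscle against 294 and 213 CPM in VAT, *Pecam1* at 466 and 538 CPM against 442 and 350 CPM, and the VEGF receptor *Kdr* at 273 and 271 CPM against 267 and 239 CPM. *Tek* itself was at 93.6 and 119 CPM against 113 and 75.4 CPM. The summed level was 4000 and 5122 CPM in muscle against 4384 and 3393 CPM in VAT, so the tissues overlap. Both muscle libraries lay above both VAT libraries for 13 of the 28 genes (46.4%) and below them for 3 (10.7%), against 33.2% and 29.3% of all genes tested. *Podxl* passed the test but not the fold rule in both pairs (log2 1.07 ± 0.30, adjusted p = 0.0413). *Vwf* was the most variable, at 229 and 343 CPM against 416 and 164 CPM, higher in VAT in the WT pair and higher in muscle in the other.

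Within the endothelial programmes a few genes were called. Of 16 genes of capillary fatty acid transport, *Cd36* (410 and 484 CPM in muscle against 1478 and 2011 CPM in VAT), *Lpl* (117 and 72.5 CPM against 401 and 359 CPM) and the nuclear receptor *Pparg* (9.08 and 11.5 CPM against 39.1 and 38.1 CPM) were called higher in VAT, between 3.78- and 4.11-fold. These 3 genes are also expressed by macrophages, whose summed list was at 1899 and 1162 CPM in muscle against 18030 and 17850 CPM in VAT, and the part of those cells in the differences was not tested. *Slc27a4*, the fatty acid transport protein FATP4, was called higher in muscle, at 123 and 110 CPM against 30.4 and 32.7 CPM, 3.68-fold (log2 1.88 ± 0.18, adjusted p = 0.00032). *Gpihbp1*, which anchors lipoprotein lipase, was not called, at 39.1 and 48.4 CPM against 50.3 and 64.7 CPM. Nor was *Fabp4*, at 301 and 376 CPM against 398 and 725 CPM.

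Of 9 venous genes, *Selp* (P-selectin), *Sele* (E-selectin) and *Nrp2* were called higher in VAT, *Lrg1* was called higher in muscle and 5 were not called. None of these calls was made in the fit over all 8 libraries. *Selp* was at 25.5 and 23.3 CPM in muscle against 183 and 119 CPM in VAT, 6.05-fold (log2 -2.60 ± 0.20, adjusted p = 0.000104), and *Sele* at 14.4 and 11 CPM against 50.3 and 34.7 CPM. Platelets also hold P-selectin, and of the 7 platelet genes tested only *Gp9* was called, higher in VAT, a call lost without the muscle WT library and without the VAT EC-*Tert*-KO library. *Lrg1*, which neutrophils also express, was at 188 and 182 CPM in muscle against 74.5 and 55.2 CPM. Of 14 arterial genes only the kinase *Bmx* was called, at 33.6 and 36.2 CPM in muscle against 6.81 and 5.26 CPM, and 3 were called without the muscle WT library. *Lyve1* was the only call among 7 lymphatic genes, 41.1-fold higher in VAT, and macrophages express it too. *Prox1*, the factor that defines lymphatic endothelium, had a log2 ratio of 0.16.

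The list of vascular tone and haemostasis was led by 1 gene with a large ratio. Both VAT libraries lay above both muscle libraries for 12 of its 23 genes (52.2%) and below them for 3 (13%). Over all genes tested those shares were 29.3% and 33.2%. *Ednrb*, the endothelin B receptor, was at 14.7 and 15.1 CPM in muscle against 508 and 515 CPM in VAT, 34.3-fold higher (log2 -5.10 ± 0.24, adjusted p = 1.58e-05). Of 23 genes tested 4 were called higher in VAT, *Npr3* and *Klf4* among them, and *Nos3* (log2 0.98), *Edn1* (0.55) and *Klf2* (0.35) were not called. Of 21 angiogenic genes *Nrp2*, *Esm1* and *Vegfd* were called higher in VAT and none higher in muscle. The call of *Esm1* was lost without the muscle WT library and without the VAT EC-*Tert*-KO library, and that of *Vegfd* when either VAT library was left out. *Rbpj*, the effector of Notch signalling, was the only call among 15 Notch genes, at 142 and 104 CPM against 569 and 517 CPM. In the TGF-beta list *Bmp2* was called higher in VAT, at 3.77 and 7.75 CPM against 62.9 and 66.6 CPM, and *Smad7* and *Ltbp2* higher in muscle, of 24. The call of *Ltbp2* was lost with either muscle library left out and without the VAT WT library, and 3 genes of the list were called higher in VAT without the muscle WT library. Basement membrane genes *Nid1*, *Nid2* and *Lamb1* were called higher in VAT, of 17, *Lamb1* not without the VAT EC-*Tert*-KO library.

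**Figure D4:**
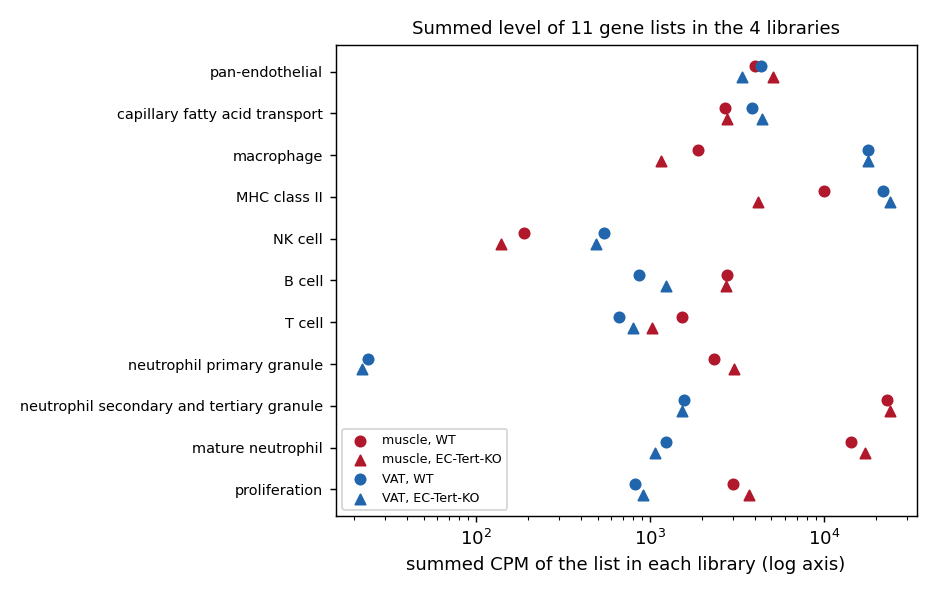
Summed CPM of 11 gene lists in the 4 libraries on a log axis, with red for muscle, blue for VAT, circles for WT and triangles for EC-*Tert*-KO. The pan-endothelial sums of the tissues overlap at 3393 to 5122 CPM, while the primary granule sums lie at 2349 and 3065 CPM in muscle and at 23.8 and 22.1 CPM in VAT.

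Cell cycle genes were higher in muscle. Of 35 proliferation genes 32 were called higher in muscle, none higher in VAT, with a median log2 ratio of 2.87. *Top2a*, topoisomerase of the dividing nucleus, was at 299 and 385 CPM in muscle against 27.9 and 40.2 CPM in VAT, 10.1-fold higher (log2 3.34 ± 0.20, adjusted p = 4.22e-05). *Ccnb1*, the cyclin of mitotic entry, was at 28.1 and 42.1 CPM against 0.973 and 1.42 CPM. *Mki67* was at 248 and 502 CPM against 78.9 and 78.6 CPM. The replication helicase genes *Mcm2* to *Mcm7* had smaller ratios, between 1.24 and 2.27 on the log2 scale. *Pcna*, *Tk1* and *E2f1* were not called, with log2 ratios from 0.00 to 0.39. The muscle library labelled EC-*Tert*-KO was the higher of the muscle libraries in each of the genes whose values are given here. The neutrophil precursor genes and the B cell genes described above were also higher in muscle, and their part in the proliferation counts was not tested. In the muscle libraries (WT, EC-*Tert*-KO) the summed level was 2996 and 3740 CPM for proliferation genes. It was 2349 and 3065 CPM for primary granule genes and 2778 and 2729 CPM for B cell genes.

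Inflammatory mediators were higher in VAT. Of 24 chemokine ligand genes 17 were called higher in VAT and none higher in muscle, with a median log2 ratio of -2.45. *Ccl2*, which draws monocytes, was at 7.41 and 4.02 CPM in muscle against 233 and 226 CPM in VAT, 41.1-fold higher (log2 -5.36 ± 0.27, adjusted p = 2.22e-05). The neutrophil chemokine *Cxcl1* was at 27 and 9.69 CPM against 348 and 340 CPM, and *Cxcl2* at 322 and 326 CPM against 1394 and 1835 CPM. *Ccl7* had a similar gap, 6.16 and 0.718 CPM against 239 and 261 CPM, with an adjusted p of 0.0616. *Cxcl12*, the stromal and endothelial ligand that retains progenitors, was level across the libraries, at 295 to 320 CPM. Of the receptors, *Ccr6*, *Cxcr2*, *Cxcr5* and *Ccr9* were called higher in muscle and *Ccr2*, *Ccr3*, *Cx3cr1* and *Cxcr3* higher in VAT, of 17. In the fit over all 8 libraries only *Ccr6* kept its call. The call of *Ccr9* was also lost in DESeq2 and with any library left out. That of *Cxcr3* was also lost without the muscle WT library and with either VAT library left out. The receptor calls in muscle numbered 2 without the muscle WT library and 2 without the VAT WT library.

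Of 18 complement genes 11 were called higher in VAT. *C4b*, of the classical pathway, was at 14.3 and 26.7 CPM in muscle against 1018 and 950 CPM in VAT, 50.1-fold (log2 -5.65 ± 0.35, adjusted p = 4.22e-05). The *C1qa*, *C1qb* and *C1qc* chains, which macrophages secrete, were at 54.4 to 76.3 CPM in the muscle WT library, at 18.7 to 24.3 CPM in the muscle EC-*Tert*-KO library and at 746 to 1157 CPM in VAT. *C3*, the central component, was the exception and was called higher in muscle, at 917 and 977 CPM against 386 and 462 CPM, a call lost when either VAT library was left out.

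**Figure D5:**
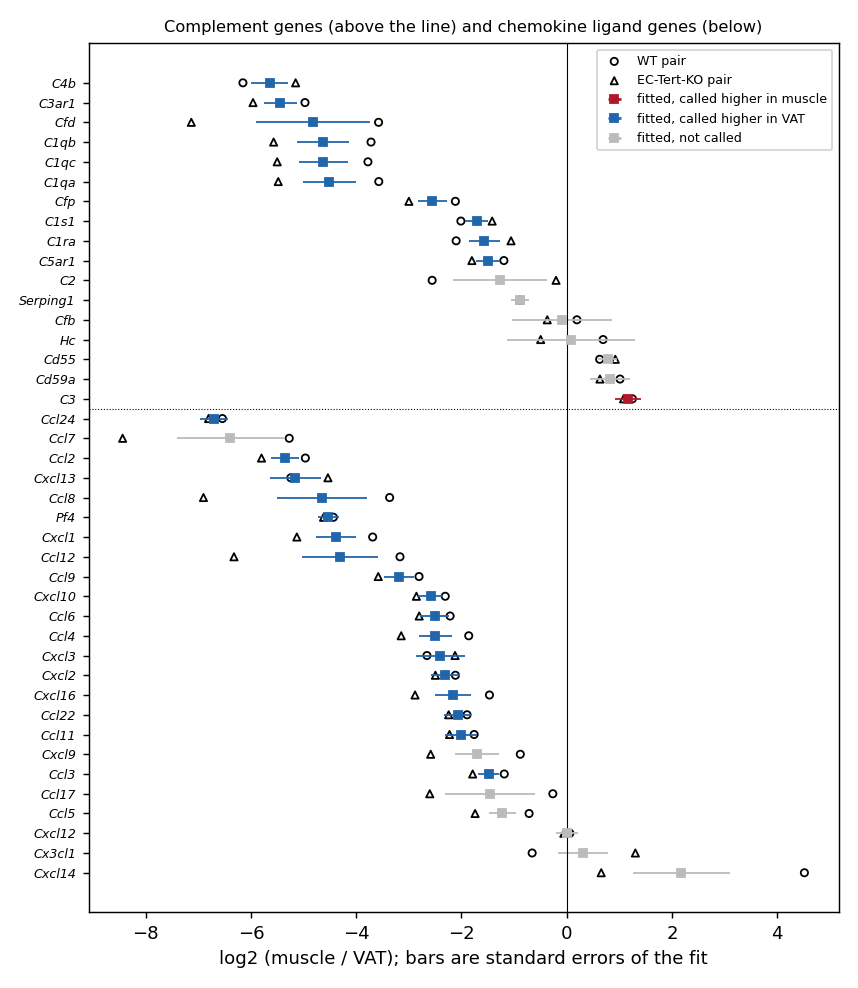
Fitted log2 ratios of muscle to VAT (squares, bars are standard errors of the fit) of complement genes, above the dotted line, and chemokine ligand genes, below it, with the WT pair (circles) and the EC-*Tert*-KO pair (triangles). Blue squares are genes called higher in VAT and make up 17 of the 24 chemokine genes, *C3* is the only red square, and 1 of the 18 tested complement genes is not drawn.

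Of 10 MHC class II genes 6 were called higher in VAT and *H2-Ob*, a B cell gene of the pathway, higher in muscle. *Cd74*, the invariant chain, was at 4760 and 2094 CPM in muscle against 10370 and 12270 CPM in VAT, and *H2-Ab1* at 1463 and 496 CPM against 3251 and 3210 CPM. The muscle libraries differed by over 2-fold in these genes, and with either VAT library left out 1 gene of the list was called higher in VAT. Of 16 genes of the IL-1 family and inflammasome, *Il1a*, *Il1rl1* and *Nlrp3* were called higher in VAT and the decoy receptor *Il1r2*, high in neutrophils, higher in muscle. Without the muscle WT library 5 were called higher in VAT, and the call of *Il1a* was lost without the VAT WT library. *Il1b* was at 531 and 358 CPM against 519 and 498 CPM. Of 22 interferon-stimulated genes *Ifih1* alone was called, higher in VAT, and not without the VAT WT library or with library totals as the scale.

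Of 30 genes of lysosomes and lipid handling, 15 were called higher in VAT and none higher in muscle. Cathepsin B (*Ctsb*) was at 658 and 417 CPM in muscle against 3128 and 2970 CPM in VAT, and the lipid transfer protein *Pltp* at 95.7 and 58.8 CPM against 988 and 928 CPM. Of 22 immediate early genes 6 were called higher in VAT, among them *Fosb* at 520 and 345 CPM against 2481 and 2559 CPM, and 14 were called without the muscle WT library. *Fos* (log2 -0.39) and *Jun* (0.05) were not called.

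Glycolysis genes leaned to muscle, fatty acid oxidation genes to neither tissue. Of 25 glycolysis genes 6 were called higher in muscle, led by the glucose transporter *Slc2a3* at 447 and 425 CPM against 92.4 and 97.5 CPM and the hexokinase *Hk3* at 243 and 294 CPM against 92.8 and 87.5 CPM, both high in myeloid cells. Only 1 of these 6 calls, that of *Slc2a3*, was kept in the fit over all 8 libraries and under the 4-fold rule. The vascular glucose transporter *Slc2a1* (log2 0.55), *Ldha* (0.42) and *Hk1* (0.19) were not called. None of 19 fatty acid oxidation genes, 78 nuclear OXPHOS subunit genes or 12 mitochondrially encoded genes was called by edgeR or DESeq2, with medians of -0.17, 0.29 and 0.08 on the log2 scale. In edgeR 4, 10 and 0 of them had an unadjusted and 2, 2 and 0 an adjusted p under 0.05, and 3 OXPHOS genes were called higher in muscle without the VAT EC-*Tert*-KO library. Ribosomal protein genes had a median log2 ratio of 0.60 with none of 77 called by edgeR or DESeq2 although in edgeR 35 had an unadjusted and 9 an adjusted p under 0.05, and 68 of them were higher in both muscle libraries than in both VAT libraries. Over all genes tested that held for 33.2%. Without the muscle EC-*Tert*-KO library 10 of the 77 were called higher in muscle.

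Of 26 tested genes of senescence and the senescence-associated secretory phenotype, 5 were called higher in VAT, among them the secreted factors *Il6*, *Cxcl1*, *Cxcl2* and *Ccl2*, and 8 without the muscle WT library. The 4 called higher in muscle were the cell cycle inhibitors *Cdkn1b*, *Cdkn2c* and *Cdkn2d* and the lamin gene *Lmnb1*, which is known to be lost in senescent cells. *Cdkn1a* (p21) was at 269 and 177 CPM in muscle against 379 and 425 CPM in VAT and was not called. *Cdkn2a* (p16) had under 1 CPM in each library and was below the filter. In the fit over all 8 libraries 0 genes of this list were called higher in muscle and 1, *Ccl2*, higher in VAT. For *Il6*, DESeq2 size factors, a higher count filter or a fit without the genotype block also ended the call. The call of *Il6* was lost when either VAT library was left out, and that of *Cdkn1b* without the muscle WT library and without the VAT EC-*Tert*-KO library. None of 15 telomerase and shelterin genes was called by edgeR or DESeq2, although in edgeR 6 had an unadjusted and 3 an adjusted p under 0.05. With the muscle EC-*Tert*-KO library left out 1 was called higher in muscle, and with the VAT EC-*Tert*-KO library left out 1 in each direction.

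Genes of the parenchyma of each tissue were low. Of 19 fast-fibre sarcomere genes none was called higher in muscle, and *Myl1* and *Ryr1* were called higher in VAT. The call of *Myl1* was lost with either muscle library left out, without the VAT WT library and without the genotype block, and 6 genes of the list were called higher in VAT without the VAT EC-*Tert*-KO library. *Acta1*, skeletal actin, was at 11.1 and 3.73 CPM in muscle against 87.9 and 1.14 CPM in VAT, so that the highest value belonged to the VAT library labelled WT. *Ckm* was at 1.55 and 0.502 CPM against 9.51 and 0.0711 CPM. The satellite cell genes *Pax7*, *Chodl* and *Fgfr4* were called higher in muscle, with *Pax7* at 16.9 and 1.15 CPM against 1.95 CPM and no count, and no gene of the list was called higher in muscle when either muscle library was left out. Without the muscle WT library 1 gene of the list was called higher in VAT. Of 10 adipocyte genes 5 were called higher in VAT, among them *Car3* at 1.43 and 2.37 CPM against 34.6 and 37.7 CPM, and 2 genes of the list were called when either VAT library was left out. *Adipoq* was at 0.239 CPM and no count against 2.16 and 2.06 CPM.

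Of 11 tendon and Schwann cell genes 5 were called higher in muscle, 3 when either VAT library was left out and 0 in the fit over all 8 libraries. The Schwann cell gene *Sox10* was at 2.63 and 2.01 CPM in muscle and had no count in VAT, at least 6.2-fold higher on the floor of 3 counts, a call lost without the muscle WT library. *Thbs4*, thrombospondin of tendon and vessel wall, was at 66.5 and 122 CPM against 1.30 and 1.64 CPM. Of 15 stromal genes 5 were called higher in VAT and 2, *Smoc2* and *Apod*, higher in muscle, neither of which was called without the VAT WT library. For VAT, 1 stromal gene was so called without the muscle WT library or without the VAT EC-*Tert*-KO library. The EC-*Tert*-KO library had the higher summed stromal level in both tissues, 2431 against 1266 CPM in muscle and 3803 against 1893 CPM in VAT. Of 9 mesothelial genes *Upk3b* and *Wt1* were called higher in VAT and the keratins *Krt8* and *Krt18* higher in muscle, calls of the keratins that were lost without the muscle WT library and with either VAT library left out. *Upk3b* had no count in muscle and 3.68 and 3.84 CPM in VAT. Of the positional transcription factors *Wt1*, *Tcf21*, *Meis2* and *Irx3* were called higher in VAT, of 20 tested. The calls of *Meis2* and *Irx3* were lost without the muscle WT library and without the VAT EC-*Tert*-KO library, that of *Meis2* also without the VAT WT library, that of *Irx3* without the muscle EC-*Tert*-KO library and that of *Tcf21* in DESeq2. In the fit over all 8 libraries none of the 4 was called. None of 22 Hox genes was called by edgeR or DESeq2, and 1 had an unadjusted p under 0.05 in edgeR.

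Of 13 erythroid genes 5 were called higher in muscle and *Epor* higher in VAT, a call lost without the VAT EC-*Tert*-KO library. Of the 13, 9 were higher in both muscle libraries than in both VAT libraries and 1 the reverse. Over all genes tested those shares were 33.2% and 29.3%. In the fit over all 8 libraries 0 of the 13 were called in either direction. *Slc4a1*, the anion exchanger of the red cell membrane, was at 17.2 and 20.2 CPM in muscle against 0.216 CPM and no count in VAT. The globins were led by 1 library, with *Hba-a1* at 401 CPM in the muscle WT library and at 66.7, 19.4 and 38.8 CPM in the others (adjusted p = 0.459). The erythroid calls in muscle numbered 8 without the muscle EC-*Tert*-KO library, and 2 in DESeq2.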

How the data were processed

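The values analysed are read counts, whole numbers for each Ensembl gene, which the authors deposited without normalization for 54532 genes on GRCm38 (mm10). The submitters' processing notes name HISAT2 2.0.5. The counting program and its use of strand are not given in the sources used here, so a gene and its antisense partner cannot be told apart. For RNA isolation the labels name RNeasy and the methods of the study Trizol. The 4 libraries of subcutaneous fat entered only the fit over all 8 libraries. No deposited per-sample column was left unmapped.

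A gene was tested if its mean count over the 4 libraries reached 10. Libraries were scaled by TMM over all genes, and edgeR 4.0.16 (R 4.3.3) fitted tissue with genotype as a block by the robust quasi-likelihood method, with 1 residual degree of freedom per gene and p-values adjusted by Benjamini-Hochberg at 0.05 over all 16951 genes. The SE of a log2 ratio is the ratio divided by the square root of its F statistic. The ratio of each pair used a prior count of 0.5 scaled to the library, and its 95% Clopper-Pearson interval covers counting error only. A lower bound of a fold sets a group without counts to 3 counts per library. The test was tried on simulated counts, and the outcome of that trial is not reported here. Leading genes are up to 12 called genes per direction with the largest smaller ratio of the pairs and at least 20 CPM in both libraries of the higher tissue, without predicted, clone, immunoglobulin, T cell receptor and pseudogene symbols; *Tert*, the members of the gene lists and genes with opposite ratios were the others named. Members of lists were taken by symbol, the first entry of a repeated name. The genes compared and the lists were chosen with earlier results of these data known. Alternatives were DESeq2 1.42.0 and its size factors, library totals, other filters and fold rules, a fit without genotype, all 8 libraries, and each library left out. With a library left out, tissue alone was fitted, the lone library of a tissue was assumed to vary like the other tissue's, and the fold rule used the pair that remained and the fitted ratio. Promoters were matched by symbol, 10 and 11 of the 12 leading genes of muscle and VAT among them. A few list members are counted in their lists but not reported by name here.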

Additional observations from a re-analysis of the deposited data

Results flagged for a closer look

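Several listed genes went opposite ways in the WT pair and in the EC-*Tert*-KO pair, each by over 2-fold with a counting interval beyond 2-fold in both. The difference between the pairs was not tested, since each tissue and genotype has 1 library. Of 38 such genes, 13 are immunoglobulin genes and 5 are members of the gene lists.

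The lymphatic endothelial genes *Reln* and *Ccl21a* had log2 ratios of muscle to VAT of -2.54 and -2.45 in the WT pair and of 2.60 and 3.74 in the EC-*Tert*-KO pair. *Reln* was at 53.2 CPM in the VAT library labelled WT and at 2.56 CPM in that labelled EC-*Tert*-KO, against 9.08 and 15.7 CPM in muscle, so the VAT libraries differed more than the muscle libraries. *Gpm6a*, listed as mesothelial, had ratios of -1.62 and 1.92 and *Prg4*, listed for large peritoneal macrophages, of -1.85 and 1.42. The calcium pump of fast fibres, *Atp2a1*, had ratios of -1.55 and 1.69, with 19.6 CPM in the VAT library labelled WT and 1.71 to 6.63 CPM in the other libraries. In each of the 5 genes the highest value of the 4 was that of the VAT library labelled WT.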

How the results depend on the processing

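The counts of called genes depend most on the libraries in the fit and on the fold rule. The fit over all 8 libraries called 190 genes higher in muscle and 188 higher in VAT, in place of 981 and 1100. At least 4-fold in both pairs left 474 and 457, and no fold rule gave 1621 and 1687. Leaving out each library in turn gave 889 to 1005 genes higher in muscle and 908 to 1174 higher in VAT, of which 732 to 783 and 777 to 901 were shared with the counts reported. The fits with other scalings, filters, DESeq2 or no replicate block (1016 and 1098 genes) stayed within 1.5 times of those counts. No paired analysis by replicate number was possible because the labels carry no replicate numbers, and genotype served as the block. Among genes whose mean count reached 50, 76.4% had the same sign in both pairs.

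Of 282 leading genes and called list members, 96 kept their call under every alternative and none changed sign. The fit over all 8 libraries ended 167 of these calls, the 4-fold rule 102, and leaving out a library 25 to 54. In the fit over all 8 libraries 5 primary granule, 10 secondary and tertiary granule, 7 mature neutrophil, 9 B cell and 18 proliferation genes were called higher in muscle, and 17 macrophage, 3 NK cell, 2 ILC2, 8 chemokine ligand, 8 complement and 6 lysosome genes higher in VAT. The cause of the losses in that fit was not tested. With 2 libraries per tissue the spread rests on 1 residual degree of freedom per gene, shared across genes by the model, and genes under 3 counts in a tissue give bounds only.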

Other observations

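The genes given here were chosen after their values were seen and are given as values. Genes of early B cell development were among those highest in muscle relative to VAT. The recombinase gene *Rag1* was at 24.6 and 40.8 CPM in muscle (WT, EC-*Tert*-KO) against 0.649 CPM and no count in VAT, and *Dntt*, terminal transferase, at 15.0 and 22.6 CPM against 0.432 and 0.996 CPM. The surrogate light chain gene *Igll1* was at 6.93 and 14.5 CPM with no count in VAT, and *Vpreb3* at 14.2 and 25.9 CPM against 1 and 2 counts. *Il7r* and *Blnk* were higher in both VAT libraries. The progenitor genes *Myb* (87.1 and 149 CPM against 17 and 11.5 CPM) and *Lin28a* (17.5 and 20.3 CPM against 0.324 and 0.569 CPM) were higher in muscle, while *Kit* (43.5 and 49.1 CPM against 81.4 and 60.0 CPM) and *Flt3* (33.5 and 25.3 CPM against 49.3 and 51.9 CPM) were higher in both VAT libraries without being called, and *Cd34* was at 121 to 141 CPM in the 4 libraries.

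Genes of cartilage and bone were present at low levels in muscle. *Col2a1*, the collagen of cartilage, was at 5.08 and 15.9 CPM and *Ibsp*, bone sialoprotein, at 2.51 and 3.80 CPM, and neither had a count in VAT. In VAT 8 of 16 such genes had no count. Of the 16, 11 were higher in both muscle libraries than in both VAT libraries and none was the reverse. Over all genes tested those shares were 33.2% and 29.3%. The 16 were chosen with their values seen, and some, *Col9a1* and *Sp7* among them, were under the count filter. The comparison of these shares is therefore not a test. The summed level of the 16 genes was 128 and 160 CPM in muscle against 37.6 and 29.0 CPM in VAT. Of this, *Alpl* gave 65.5 and 73.7 against 24.1 and 17.2 CPM and *Spp1* 35.3 and 20.4 against 6.38 and 7.68 CPM. Many cell types express both. The summed granule, early B cell and erythroid levels were also higher in muscle, and a link between these results was not tested. Between the muscle libraries (WT, EC-*Tert*-KO) the order differed by list. The primary granule sum was 2349 and 3065 CPM, the early B cell sum 770 and 712 CPM and the erythroid sum 712 and 168 CPM.

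The basophil proteases *Mcpt8* (48.2 and 39.5 CPM against 0.973 and 0.783 CPM) and *Prss34* (136 and 111 CPM against 3.89 and 0.285 CPM) were higher in muscle. Of 8 basophil genes looked at, 6 were higher in both muscle libraries than in both VAT libraries and 2 were the reverse. Over all genes tested those shares were 33.2% and 29.3%. The basophil genes too were chosen with their values seen, so the comparison of shares is not a test. *Gata2* was called higher in muscle, at 80.9 and 88.6 CPM against 36 and 23.9 CPM. The 2 that went the other way were *Il4*, called higher in VAT at 1.79 and 2.01 CPM against 5.95 and 7.11 CPM, and *Cpa3*. *Cpa3* was at 17.6 and 18.9 CPM against 48.1 and 26.7 CPM. Of 10 heat shock genes looked at, 8 were higher in both muscle libraries than in both VAT libraries and 1 was the reverse. *Hspa1b* was at 1904 and 3016 CPM in muscle against 192 and 221 CPM in VAT. *Hspa1a* was at 957 and 1474 CPM against 196 and 182 CPM, and *Hsph1* at 553 and 506 CPM against 68.9 and 75.8 CPM. The reverse was *Hsf1*, at 54.9 and 48.4 CPM against 59.4 and 59.6 CPM, which was not called. *Hspa8*, the constitutive member of the family, was at 4236 and 2283 CPM against 2686 and 2319 CPM, so the tissues overlapped. The metallothionein *Mt1* went the other way, at 41.8 and 30.9 CPM in muscle against 449 and 572 CPM in VAT. Of 964 tested genes that the deposited table annotates as transcription factors, 51 were called higher in muscle and 41 higher in VAT. Over all genes tested 5.79% and 6.49% were so called. *Cebpe*, a factor of late granulocyte maturation, was at 64.9 and 84.5 CPM in muscle against 3.46 and 3.34 CPM in VAT, and *Spib*, a B cell and plasmacytoid factor, at 123 and 117 CPM against 13 and 12.7 CPM. *Batf3*, *Maf* and *Gata3* were among those called higher in VAT, with *Gata3* at 22.4 and 15.6 CPM in muscle against 82.4 and 99.7 CPM in VAT.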
